A study of Mus musculus with 17 samples.

Results

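Imprinted genes are transcribed mainly or only from the copy inherited from a given parent, the mother for some genes and the father for others. A named set of 44 imprinted genes was taken from the count table by symbol, and all 44 were found among its 23420 genes. They lie at 18 loci outside the Igf2 locus. By textbook assignment, 24 are listed as expressed from the paternal and 17 from the maternal copy. Gnas, Trappc9 and Inpp5f are listed as dependent on tissue or transcript. The assignments were not checked in these cells, and other listed genes may also be imprinted in some tissues only. The counts do not separate the parental copies, so every value is the sum over both.

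The libraries came from cells of C57BL/6 mice with the R172H knock-in allele, which makes a mutant p53 protein and is shared by all groups. There were 4 second-generation tumour lines (TL2), grown from tumours that arose after injection of first-generation lines, 6 first-generation tumour lines (TL1) and 3 cultures of bone marrow mesenchymal stem cells (MSC), the stromal cells from which the tumour lines arose. There were also 2 clones of first-generation line cells labelled as p53 knockout (KO clones) and 2 control clones that kept the mutant p53 (Mut clones). The labels give no treatment, a passage range shared by all samples, and no zygosity of the allele; they do not name the line from which each clone was taken. The cultures differed too: agar-coated plates and leukaemia inhibitory factor for tumour-derived cells, MSC medium for MSC. Culture and the comparison with MSC therefore cannot be told apart. A number in parentheses in the titles (1, 2 or 3) is kept in the library names, with a letter where a group holds it more than once, so that TL1 2a and TL1 2b are both number 2 lines.

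Totals were 12215025 to 15962341 counts per library. Levels are CPM (counts scaled to a common total per library) and are not corrected for gene length, so they are compared between libraries and not between genes. Trp53, the knocked-out gene, had 80.4 and 89.5 CPM in KO clones, against 278 and 357 CPM in Mut clones. Its log2 change was -1.89 (SE 0.226; edgeR, adjusted p = 0.00259), and a gene-level count does not show whether the remaining transcript is intact. Summed levels of 12 stromal markers were 1577 to 9457 CPM in TL2, 1664 to 4721 CPM in TL1 and 17806 to 25954 CPM in MSC. The MSC sums came mostly from Col1a1 (6878 to 9100 CPM), Col1a2 (6116 to 8929 CPM) and Cxcl12 (2504 to 6422 CPM). Summed levels of 8 blood and macrophage markers were 19.8 to 46.0 CPM in TL2, 13.5 to 29.7 CPM in TL1 and 11.1 to 16.5 CPM in MSC; the pan-leukocyte marker Ptprc was at most 0.418 CPM in any library, and Cd14 was called higher and Fcer1g lower in tumour lines.

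At most imprinted loci, imprinting rests on methylation of CpG sites in control regions, in many cases set in the germ line. This methylation silences 1 parental copy or switches a long RNA that silences its neighbours. Many imprinted genes act on growth: paternally expressed genes tend to promote it in the embryo and placenta, and maternally expressed genes such as Cdkn1c, Grb10 and Phlda2 to restrain it. Several of these genes, among them Dlk1, Peg3, Mest, Ndn and Plagl1, are known from stem and progenitor cells of fat, muscle and bone marrow.

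Sequences near the starts of some genes that were high in some libraries and at or near 0 in others are shown first. Each CG dinucleotide, the kind of site that can be methylated, is in capitals. The windows were placed by gene start and were not matched to imprinting control regions. The sequences are from RefSeq on GRCm38.p6, read 5′ to 3′ on the strand of the gene. The Peg3 and Usp29 genes point away from each other and share the 96 bases between their starts, at chr7:6730463-6730558 (plus strand), which hold 3 CG dinucleotides. The other windows are the 250 bases before a RefSeq start. They hold 5 CG dinucleotides for Ndn (chr7:62348027-62348276, plus), 8 for Peg12 (chr7:62464511-62464760, minus), 40 for Grb10 (chr11:12037421-12037670, minus) and 10 for Meg3 (chr12:109540746-109540995, plus).
Peg3-Usp29: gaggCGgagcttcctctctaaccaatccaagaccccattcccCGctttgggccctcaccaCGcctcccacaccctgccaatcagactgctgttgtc
Ndn: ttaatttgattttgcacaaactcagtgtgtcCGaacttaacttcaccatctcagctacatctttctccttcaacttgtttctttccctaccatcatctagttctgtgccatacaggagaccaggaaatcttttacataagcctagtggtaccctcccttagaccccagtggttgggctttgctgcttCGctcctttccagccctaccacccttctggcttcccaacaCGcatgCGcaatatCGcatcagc
Peg12: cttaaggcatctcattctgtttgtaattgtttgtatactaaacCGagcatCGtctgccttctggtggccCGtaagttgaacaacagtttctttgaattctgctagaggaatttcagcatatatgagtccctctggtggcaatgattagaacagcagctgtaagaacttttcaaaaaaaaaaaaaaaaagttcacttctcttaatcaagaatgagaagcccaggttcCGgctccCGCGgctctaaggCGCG
Grb10: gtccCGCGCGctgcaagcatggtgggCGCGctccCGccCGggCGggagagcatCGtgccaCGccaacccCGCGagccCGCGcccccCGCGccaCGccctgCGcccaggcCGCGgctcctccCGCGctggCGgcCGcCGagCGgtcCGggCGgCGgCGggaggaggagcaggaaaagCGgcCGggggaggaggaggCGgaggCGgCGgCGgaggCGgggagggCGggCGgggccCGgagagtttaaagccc
Meg3: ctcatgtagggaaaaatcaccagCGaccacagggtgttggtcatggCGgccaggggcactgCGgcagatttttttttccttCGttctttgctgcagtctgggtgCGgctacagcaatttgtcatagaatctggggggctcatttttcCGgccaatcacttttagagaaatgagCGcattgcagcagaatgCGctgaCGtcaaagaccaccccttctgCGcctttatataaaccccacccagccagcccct
The motif searched was CG, which reads the same on both strands. Of 32851 windows of this length in the table, 92.1% held at least 1 and the median was 6, while 49 windows of 34 members had a median of 10. No methylation was measured in these libraries.

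Small regulatory RNAs (miRNAs) are also encoded at these loci. The 3 mature sequences shown have hairpins within the spans of genes described below, and the seed (bases 2 to 8) is in capitals. The hairpin of mmu-miR-127-3p lies within the span of Rtl1 on the opposite strand, that of mmu-miR-410-3p within Mirg, and that of mmu-miR-335-5p within Mest. Their seeds differ from each other.
mmu-miR-127-3p: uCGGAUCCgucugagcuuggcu
mmu-miR-410-3p: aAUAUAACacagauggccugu
mmu-miR-335-5p: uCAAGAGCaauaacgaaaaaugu
Between Dlk1 and Dio3 the reference lists 58 hairpins, of which 54 have an entry in the count table, with 2 counts in all over the 17 libraries. The miRNAs themselves are therefore not measured here, only the genes whose spans hold hairpins.

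The members fell into 3 classes by level. Of the 44, 13 reached 1 CPM in all 17 libraries, among them Gnas, which encodes the stimulatory G protein alpha subunit, the retrotransposon-derived Peg10, the dystroglycan-complex gene Sgce, the coat protein gene Copg2, the tetraspanin Cd81 and the long RNA Kcnq1ot1. Another 8 reached 1 CPM in no library: Calcr, Ascl2, Rtl1, Snrpn, Magel2, Nespas, Nap1l5 and Slc22a3. Snrpn, which is widely expressed in other settings, had 1 count in all 17 libraries, and Snurf, which overlaps it, had 0. How reads that fall on both genes were counted is not given, and they may have been left out. These counts therefore do not show whether Snrpn was silent. The other 23 reached 1 CPM in some libraries only. Since no strand setting is given, reads of a member and of an overlapping gene cannot be told apart. This concerns, among others, Mest with Copg2, Kcnq1ot1 with Kcnq1, Meg3 and Rian with Rtl1, Peg13 with Trappc9 and Nespas with Gnas. It also concerns Airn with Igf2r, Nnat with Blcap, Zrsr1 with Commd1 and Nap1l5 with Herc3. In each tumour line 19 to 25 members reached 1 CPM, in each MSC library 30, in the KO clones 22 and 20, and in the Mut clones 17 and 18. The library with 25 was TL1 3a.

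**Figure D1:**
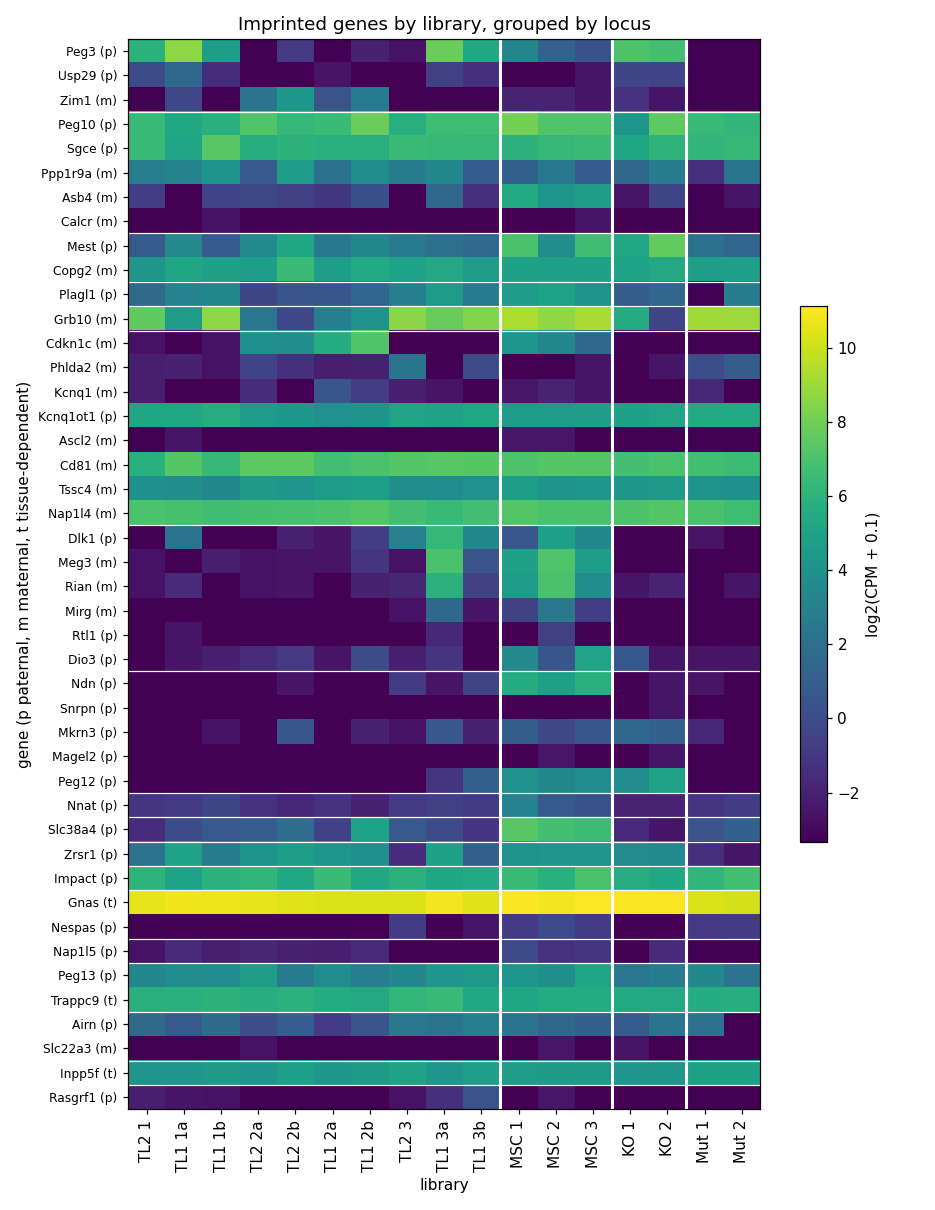
Levels of the 44 imprinted genes (rows, grouped by locus, with the expressed parental copy in brackets) in the 17 libraries (columns: tumour lines, MSC, KO clones, Mut clones), as log2(CPM + 0.1). Ndn, Asb4, Slc38a4 and Peg12 are bright in the 3 MSC columns and dark in nearly all tumour lines, while Gnas stays between 1150 and 2211 CPM in every column.

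Against MSC, the cells they came from, tumour lines had lower levels of paternally expressed Ndn, Peg12, Slc38a4, Dio3, Mest and Nnat and of maternally expressed Asb4. Of 31 members that passed the filter on low counts, 7 were lower in tumour lines and 0 were higher (edgeR quasi-likelihood test, adjusted p under 0.05). Over all 13262 genes tested, 4.79% were called lower and 3.86% higher. The median log2 change was -0.67 over the members and 0.10 over all genes, with 23 members negative and 8 positive, where 56.4% of all genes were positive. In paternally expressed members the median was -1.22 (17 tested, 14 negative, 6 called), and in maternally expressed members it was -0.15 (11 tested, 7 negative, 1 called). The difference between the parental classes was not tested. Ndn, Peg12, Dio3 and Nnat passed the filter through MSC, where they were high, and did not pass it among the tumour lines alone. In bulk RNA, fewer cells of a type and less RNA per cell cannot be told apart. The stromal marker sum, which in MSC came mostly from Col1a1, Col1a2 and Cxcl12, was lower in all 10 tumour lines as well. Thy1, Eng and Cxcl12 were called lower among its 12 genes. Of those 12, 7 had negative and 5 positive changes, and Nt5e had 0.201 to 56.0 CPM in tumour lines, against 1.09 to 3.07 CPM in MSC. The part of the stromal genes in the changes of the imprinted genes was not tested.

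The Snrpn-Ndn locus on chromosome 7 is the mouse counterpart of the Prader-Willi region, in which the paternal copy is active. Ndn (62348277 to 62349928, plus strand) encodes necdin, a protein that restrains proliferation and adipogenesis. It had no count in 6 of 10 tumour lines and at most 0.676 CPM in the other 4, against 49.1, 29.2 and 52.7 CPM in MSC. The groups did not overlap, and the log2 change was -8.31 (SE 1.03, adjusted p = 0.000543). Peg12, an intronless gene of the same locus (62461871 to 62464510, minus), had no count in 8 tumour lines, 0.349 and 2.10 CPM in TL1 3a and TL1 3b, and 15.8, 9.69 and 12.8 CPM in MSC. Its log2 change was -7.69 (SE 1.49, adjusted p = 0.0143). Mkrn3, which encodes a ring-finger protein known for its role in the timing of puberty, reached 1.33 CPM in TL2 2b and 1.40 CPM in TL1 3a and at most 0.150 CPM in the other lines, against 1.84, 0.727 and 1.37 CPM in MSC, and did not pass the test (adjusted p = 0.333). Magel2 had 0 counts in all tumour lines and 1 count over the MSC libraries.

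At the Peg10-Sgce locus on chromosome 6, the change was in Asb4, a maternally expressed gene at some distance from the paternally expressed pair. Asb4 (5383386 to 5433022, plus) encodes the substrate receptor of a ubiquitin ligase. Its lowest, median and highest levels were 0, 0.577 and 2.86 CPM in tumour lines, against 43.9, 18.8 and 26.0 CPM in MSC, with no overlap and a log2 change of -5.45 (SE 0.866, adjusted p = 0.00268). Peg10, a gag-pol derived gene needed for the placenta, had 40.0 to 225 CPM in tumour lines and 145 to 271 CPM in MSC (adjusted p = 0.184). Sgce, which starts beside Peg10 on the other strand, had 34.5 to 163 CPM in tumour lines and 62.3 to 90.4 CPM in MSC. Ppp1r9a, encoding an actin-binding scaffold of neurons, had 1.55 to 23.7 CPM in tumour lines and 1.75 to 5.57 CPM in MSC (adjusted p = 0.227).

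Mest, Slc38a4 and Nnat are paternally expressed genes of separate loci. Mest (chromosome 6, 30733506 to 30748466, plus) encodes a hydrolase-fold protein linked to fat cell size. Its lowest, median and highest levels were 1.58, 5.70 and 37.2 CPM in tumour lines, against 126, 14.2 and 101 CPM in MSC. In 9 of 10 tumour lines it lay below every MSC library, the exception being TL2 2b, and the log2 change was -3.10 (SE 0.731, adjusted p = 0.0221). Copg2, the antisense neighbour whose 3′ end overlaps that of Mest, had 20.1 to 89.8 CPM in tumour lines and 28.3 to 30.5 CPM in MSC (adjusted p = 0.515).

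Slc38a4 (chromosome 15, 96994816 to 97055956, minus), a transporter of neutral amino acids needed by the placenta, had a median of 1.22 CPM in tumour lines. The lowest line was at 0.263 CPM and the highest, TL1 2b, at 33.4 CPM, against 165, 111 and 93.7 CPM in MSC. All 10 lines lay below all MSC libraries, and the log2 change was -5.15 (SE 1.08, adjusted p = 0.0131). Nnat (chromosome 2, 157560078 to 157562525, plus), which encodes a small membrane protein of the endoplasmic reticulum and lies within an intron of Blcap, had 0.150 to 0.718 CPM in tumour lines, against 8.44, 1.62 and 1.14 CPM in MSC. The groups did not overlap (log2 change -3.19, SE 0.547, adjusted p = 0.00432), and MSC 1 stood above the other MSC libraries. Blcap itself had 20.6 to 49.6 CPM in tumour lines and 53.8 to 77.3 CPM in MSC, and its part in the Nnat counts was not tested.

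**Figure D2:**
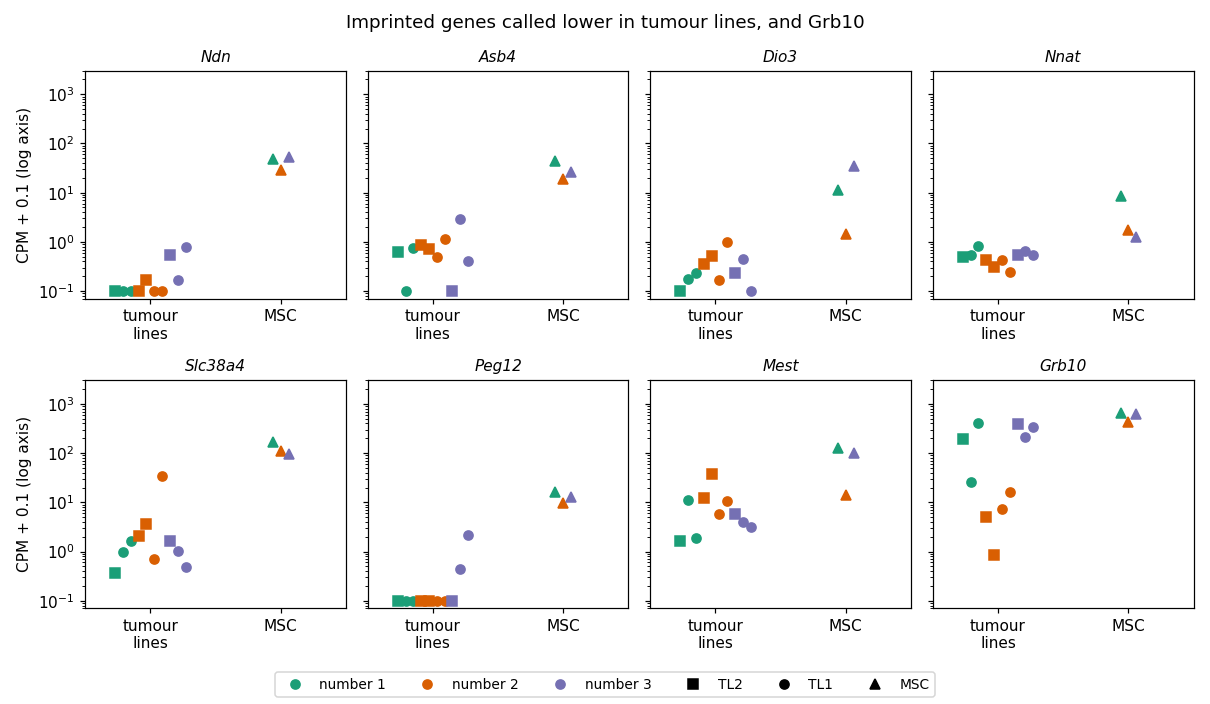
Level of the 7 imprinted genes called lower in tumour lines, and of Grb10, in each tumour line (left) and each MSC library (right), as CPM + 0.1 on a log axis; squares are TL2, circles TL1 and triangles MSC, and colours give the number in the title. Slc38a4 in TL1 2b, at 33.4 CPM, is the nearest to MSC in its panel, and the Grb10 lines spread over more than the whole range of MSC.

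Grb10 was below MSC in every tumour line without being called. It encodes a growth factor receptor adaptor that dampens insulin signalling and is maternally expressed outside the brain (chromosome 11, 11930499 to 12037428, minus). Its levels were 0.768, 109 and 401 CPM as the lowest, median and highest of the tumour lines, against 649, 429 and 615 CPM in MSC. All 10 tumour lines lay below all MSC libraries, but the lines spread over a wide range and the test did not call the change (log2 change -1.81, SE 1.24, adjusted p = 0.377). Of the 31 members tested, 7 were lower without overlap, Grb10 among them and Mest not, against 7.51% of all genes, and 0 were higher, against 5.05%.

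The calls of Ndn, Asb4 and Dio3 held in all 21 other fits, of which 13 left out a library. Without MSC 1, those were the 3 called members, since Mest, Nnat, Peg12 and Slc38a4 lost their call. Without MSC 3, Mest and Peg12 lost it. With the tumour lines of each number summed, 4 members were called, without Mest, Nnat and Peg12.

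The Dlk1-Dio3 locus on chromosome 12 holds paternally expressed protein genes (Dlk1, Rtl1, Dio3) and maternally expressed long RNAs (Meg3, Rian, Mirg). Of the miRNAs shown above, mmu-miR-410-3p lies within Mirg and mmu-miR-127-3p within the span of Rtl1, on the opposite strand. Dio3, the deiodinase that inactivates thyroid hormone (110279230 to 110281097, plus), had 0, 0.130 and 0.900 CPM as lowest, median and highest of the tumour lines. In MSC it had 11.2, 1.37 and 34.6 CPM, with no overlap and a log2 change of -6.05 (SE 0.974, adjusted p = 0.00295). Dlk1, a transmembrane relative of Notch ligands that holds back adipogenesis (109452485 to 109463336, plus), behaved otherwise. It had 7.71, 78.8 and 10.4 CPM in TL2 3, TL1 3a and TL1 3b, 4.49 CPM in TL1 1a and at most 0.525 CPM in the other lines, against 1.42, 28.5 and 10.2 CPM in MSC. The number 3 lines thus lay in or above the MSC range and the other lines, apart from TL1 1a, lay below it (adjusted p = 0.686).

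The maternal RNAs of the locus reached MSC levels in TL1 3a. Meg3 (109540996 to 109571729, plus) had 124 CPM in TL1 3a, 1.20 CPM in TL1 3b and at most 0.375 CPM in the other 8 lines, against 30.1, 143 and 26.4 CPM in MSC. Rian (109603945 to 109661716, plus), which hosts small nucleolar RNAs, had 62.5 CPM in TL1 3a, 0.601 CPM in TL1 3b and at most 0.224 CPM elsewhere, against 25.3, 123 and 14.3 CPM in MSC. Mirg had 2.86 CPM in TL1 3a and at most 0.0751 CPM in the other lines, against 0.585, 5.49 and 0.534 CPM in MSC. Within TL1 3a, then, Dlk1, Meg3, Rian and Mirg were all in or above the MSC range, while Dio3 (0.349 CPM) was below it. Neither Meg3 (adjusted p = 0.0668) nor Rian (adjusted p = 0.0580) was called, and without TL1 3a both were. Rtl1 reached at most 0.209 CPM in tumour lines and 0.565 CPM in MSC, and its span overlaps Meg3 and Rian on the other strand.

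**Figure D3:**
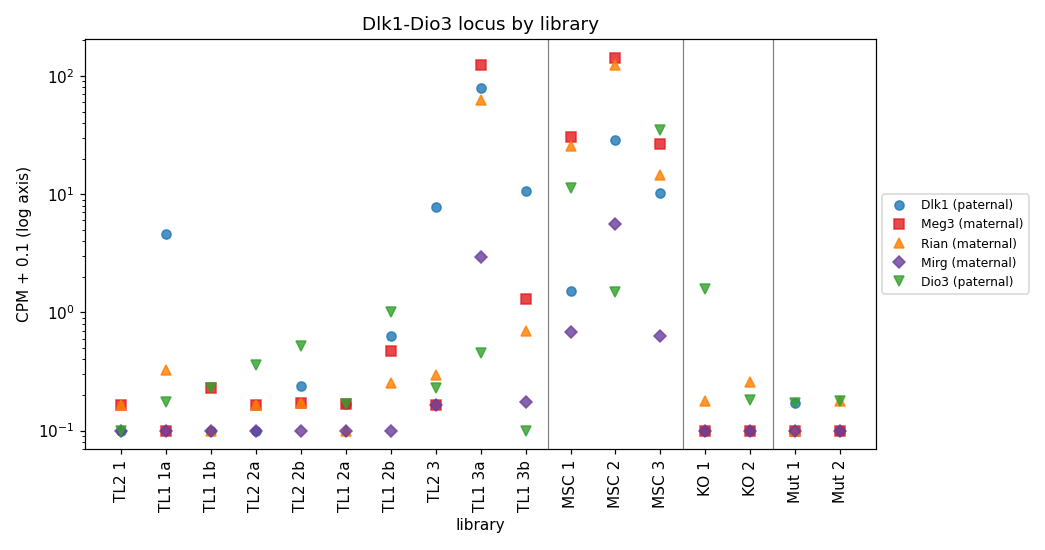
Level of 5 genes of the Dlk1-Dio3 locus in the 17 libraries, as CPM + 0.1 on a log axis, with the expressed parental copy in the legend; lines separate tumour lines, MSC, KO clones and Mut clones. In TL1 3a, Dlk1, Meg3 and Rian stand at 78.8, 124 and 62.5 CPM, whereas Meg3 is at most 1.20 CPM in the other tumour lines and 0 in the 4 clones.

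The other members were not called against MSC or had too few counts to be tested. At the Kcnq1 locus on chromosome 7, the long RNA Kcnq1ot1, whose transcription silences the neighbours on the paternal copy, had 15.8 to 51.7 CPM in tumour lines and 23.9 to 27.6 CPM in MSC (adjusted p = 0.584). Cd81 had 56.9 to 180 CPM in tumour lines and 135 to 155 CPM in MSC, and the histone chaperone gene Nap1l4 had 88.1 to 154 CPM in tumour lines and 124 to 151 CPM in MSC. Tssc4 had 10.7 to 28.4 CPM in tumour lines and 17.4 to 26.1 CPM in MSC. Kcnq1, a potassium channel gene whose span contains Kcnq1ot1, stayed at or below 1.34 CPM, and Phlda2, a placental growth restrainer, was at most 0.901 CPM in tumour lines and MSC except in TL2 3 (4.82 CPM). Plagl1, a zinc finger factor that regulates other imprinted genes (chromosome 10, 13090832 to 13131694, plus), had 0.712, 4.70 and 25.0 CPM as lowest, median and highest of the tumour lines, against 24.6, 33.7 and 16.02 CPM in MSC, and was not called (adjusted p = 0.0715).

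Gnas had 1236, 1437 and 1845 CPM as lowest, median and highest of the tumour lines, against 2057, 1829 and 2211 CPM in MSC (adjusted p = 0.111). Nespas, a paternal antisense RNA of the Gnas locus, was at most 0.450 CPM in tumour lines and 0.458 to 0.808 CPM in MSC. The translation regulator Impact had 33.1 to 90.7 CPM in tumour lines and 57.8 to 127 CPM in MSC (adjusted p = 0.187). The paternal RNA Peg13 had 6.15 to 26.4 CPM in tumour lines and 14.4 to 37.0 CPM in MSC, and Trappc9, the trafficking gene in whose intron it lies, had 39.4 to 83.9 CPM in tumour lines and 37.3 to 47.2 CPM in MSC. Inpp5f, a phosphoinositide phosphatase gene, had 18.2 to 31.2 CPM in tumour lines and 22.0 to 25.1 CPM in MSC. Airn, the antisense RNA that silences Igf2r on the paternal copy, had 0.468 to 7.51 CPM in tumour lines and 2.06 to 4.43 CPM in MSC. Slc22a3 had at most 0.0808 CPM and Nap1l5 at most 0.835 CPM in any library, while Rasgrf1, a Ras exchange factor, was at 1.20 CPM in TL1 3b and at most 0.279 CPM elsewhere.

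Between the generations no member was called, TL2 against TL1. None of the 13262 genes was either, which is 0% in each direction. At an unadjusted p under 0.05 there were 246 genes (1.85%) and 3 members, Meg3, Rian and Peg12. DESeq2 and limma-voom called 0 members too, as did the fit with the number in the titles as a block, which is the fit that pairs TL2 with TL1. For Meg3 the TL2 lines had 0.0657, 0.0647, 0.0699 and 0.0643 CPM, which lay within the range of TL1, and the high TL1 value came from TL1 3a. The groups overlapped for all 31 members; of all genes, 0.0452% were higher and 0.0905% lower without overlap.

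The tumour lines were next compared by the number in their titles. The test asked whether any of the 3 numbers differed, across both generations with generation as a covariate, in 24 members with enough counts. At an adjusted p under 0.05 it called 1 member, Cdkn1c, against 2.09% of 12948 genes. At an unadjusted p under 0.05 it gave 10 of 24 members, where 23.1% of all genes passed. The labels do not say what the numbers stand for. The test took the lines as independent, although TL2 lines came from tumours of TL1 lines and the number pairs TL2 with TL1. Its p-values can therefore reflect a state shared by related lines.

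Cdkn1c (143458339 to 143461059 on chromosome 7, minus) encodes the cyclin-dependent kinase inhibitor p57, a maternally expressed brake on the cell cycle. In the number 2 lines it had 14.9, 14.2, 48.8 and 144 CPM in TL2 2a, TL2 2b, TL1 2a and TL1 2b. In the number 1 lines it was at most 0.0657 CPM, and in the number 3 lines it had no count. Cdkn1c thus passed the low-count filter through the number 2 lines, where it was high. The means were 0.0436 ± 0.0378 CPM for number 1 (SD, n = 3), 55.4 ± 61.1 CPM for number 2 (n = 4) and 0 for number 3 (n = 3), with an edgeR adjusted p of 0.00432, and the call held in all 16 alternatives. MSC had 19.05, 9.69 and 2.82 CPM, so number 2 lines overlapped MSC and the others lay below it. The tumour lines as a whole were not called against MSC (log2 change 0.58, SE 2.13, adjusted p = 0.883), and the sign turned with limma-voom (-3.45) and without TL1 2b (-0.28).

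At the Peg3 locus on chromosome 7, genes from opposite parental copies were high in different lines. Peg3 (6703892 to 6730462, minus), a paternally expressed zinc finger protein of growth, nurturing behaviour and muscle stem cells, had 60.4, 398 and 26.9 CPM in TL2 1, TL1 1a and TL1 1b. In the number 2 lines it had at most 0.419 CPM. In the number 3 lines it had 223 and 39.1 CPM in TL1 3a and TL1 3b but 0.0643 CPM in TL2 3. MSC had 9.27, 2.18 and 1.14 CPM. Zim1 (6674444 to 6696540, minus), the maternally expressed zinc finger gene next to it, had 4.34, 20.96, 1.20 and 6.07 CPM in TL2 2a, TL2 2b, TL1 2a and TL1 2b and at most 0.748 CPM in every other library. Neither passed the test of the number (adjusted p = 0.0813 and 0.108). Usp29, which starts 96 bases from Peg3, was highest in TL1 1a at 2.84 CPM and was at most 0.853 CPM elsewhere.

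Summed levels of 6 skeletal muscle markers were 2417 CPM in TL1 1a and 2679 CPM in TL1 3a, the tumour lines with the most Peg3, and 11.7 to 917 CPM in the other tumour lines. They were 11.7 CPM in TL2 3, where Peg3 was at 0.0643 CPM, but 268 to 906 CPM in the number 2 lines, where it was at most 0.419 CPM. The part of muscle gene levels in those of Peg3 was not tested.

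Grb10 ran the other way from Cdkn1c. It had 4.98, 0.768, 7.29 and 16.1 CPM in TL2 2a, TL2 2b, TL1 2a and TL1 2b, 192, 25.3 and 401 CPM in TL2 1, TL1 1a and TL1 1b, and 395, 214 and 339 CPM in TL2 3, TL1 3a and TL1 3b. The number 2 lines were thus below all others, though the test gave an adjusted p of 0.0571. Plagl1 was also lowest in the number 2 lines, at 0.712 to 2.55 CPM, against 3.09 to 9.59 CPM in number 1 and 6.31 to 25.0 CPM in number 3 (adjusted p = 0.0524). Kcnq1ot1 was 15.8 to 24.0 CPM in number 2 lines, 35.5 to 51.7 CPM in number 1 and 32.3 to 39.3 CPM in number 3 (adjusted p = 0.0592). Airn was 0.468 to 1.89 CPM in number 2 lines, 1.57 to 3.33 CPM in number 1 and 4.60 to 7.51 CPM in number 3 (adjusted p = 0.0888). Dlk1 had an adjusted p of 0.066.

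DESeq2 called 10 members by number, with Airn, Dlk1, Grb10, Kcnq1ot1, Peg3, Plagl1, Slc38a4, Tssc4 and Zim1 beside Cdkn1c; it called 1981 of all genes, where edgeR called 271. Without the generation covariate 4 were called, with Grb10, Kcnq1ot1 and Plagl1 added. Without TL1 1a, Dlk1 and Grb10 were added, and without TL1 3a, Phlda2.

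**Figure D4:**
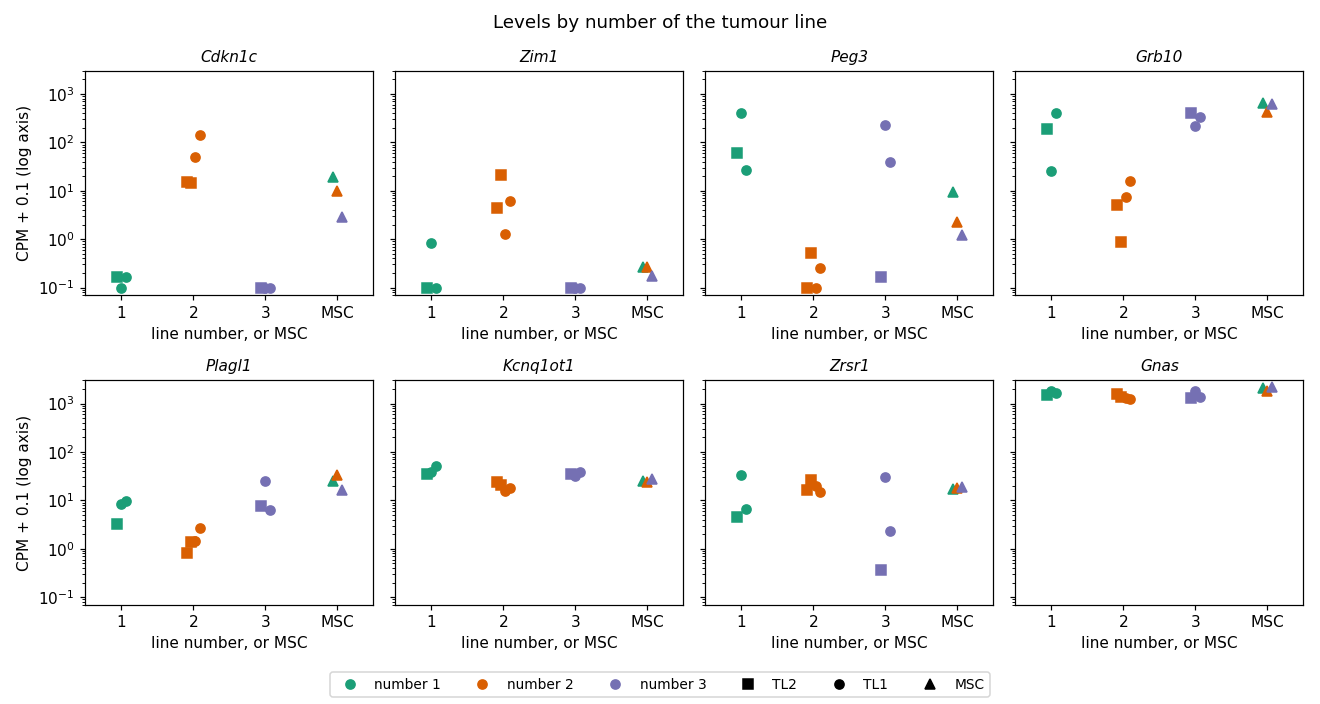
Levels of 8 imprinted genes by number of the tumour line (1, 2 or 3) and in MSC, as CPM + 0.1 on a log axis; squares are TL2, circles TL1 and triangles MSC. Cdkn1c and Zim1 are high in the number 2 lines, where Peg3 is at most 0.419 CPM and Grb10 at most 16.1 CPM, while Gnas is at a like level in all lines.

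Members spread widely among the tumour lines. The range of log2 CPM over the 10 lines was at least 5 for 7 of 24 members (29.2%), against 8.23% of all 12948 genes. The median range was 3.06 for members and 1.54 for all genes. Cdkn1c, Zim1 and Dlk1 passed the low-count filter mainly through lines of the number in which they were high, so the share of wide ranges depends on that filter. The widest were Peg3 (11.42), Cdkn1c (9.96), Dlk1 (9.09) and Grb10 (8.78). The narrowest were Gnas (0.58), Inpp5f (0.77) and Nap1l4 (0.80). Zrsr1, a paternally expressed splicing factor gene without introns, lies within an intron of Commd1 (chromosome 11, 22972005 to 22976496, plus). It had 0.257, 30.3 and 2.18 CPM in TL2 3, TL1 3a and TL1 3b and 4.46 to 32.5 CPM in the other lines, against 16.7 to 18.5 CPM in MSC.

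Between clones of tumour line cells without and with mutant p53, Peg3, Peg12, Zrsr1, Mest, Mkrn3 and Gnas were higher in KO clones. Phlda2, Slc38a4 and Impact were lower. The parent line of each clone is not given, so p53 status and the line or clone of origin cannot be told apart. Among the 10 tumour lines, Peg3 ranged from 0 to 398 CPM, Zrsr1 from 0.257 to 32.5 CPM and Grb10 from 0.768 to 401 CPM. Of 23 members tested, 6 were higher and 3 lower in KO clones than in Mut clones. Over all 12238 genes, 14.2% were called higher and 12% lower. Members without overlap numbered 10 higher and 8 lower, against 34.7% and 35% of all genes. The median log2 change was 0.37 over the members and 0.00 over all genes. By parental copy, 7 of 13 paternally expressed members were called, 5 higher and 2 lower, and 1 of 7 maternally expressed members, which was lower. Peg3, Peg12, Mkrn3 and Zrsr1 had 0, 0, 3 and 5 counts over the Mut clones, and Phlda2 had 1 over the KO clones. These members passed the low-count filter through the group in which they were high, so the counts by parental copy depend on it. The parental classes were not tested against each other.

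Peg3 had 133 and 110 CPM in KO clones and no count in either Mut clone, and was at least 1072-fold higher against a floor of 3 counts over the Mut clones (adjusted p = 0.000142). Peg12 had 12.5 and 32.0 CPM in KO clones and again no count in Mut clones, at least 196-fold higher (adjusted p = 0.00355). Zrsr1 had 12.4 and 11.5 CPM in KO clones, against 0.289 and 0.0790 CPM in Mut clones (log2 change 5.94, SE 0.626, adjusted p = 0.00157). These 3 paternally expressed genes were near zero in both Mut clones, and their calls held in all 4 fits without a clone, in which the lone clone of a group is assumed to vary like those of the other group. Ndn, near Peg12 on chromosome 7, did not follow it: it had 0 and 0.0795 CPM in KO clones and 0.0723 and 0 CPM in Mut clones, and was not tested. Mkrn3, from the same locus, had 2.74 and 2.07 CPM in KO clones, against 0.217 and 0 CPM (3 counts) in Mut clones, a ratio of 21.3 (95% counting interval 6.94 to 106, adjusted p = 0.0200).

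Mest had 40.2 and 200 CPM in KO clones, against 3.76 and 2.53 CPM in Mut clones (log2 change 5.26, SE 0.936, adjusted p = 0.0193). The KO clones differed from each other, and Mest lost its call without either Mut clone. Gnas had 2063 and 2106 CPM in KO clones, against 1279 and 1150 CPM in Mut clones, a smaller log2 change of 0.79 (SE 0.203, adjusted p = 0.0320). Peg10 had 18.3 and 181 CPM in KO clones, on either side of the 84.6 and 71.4 CPM in Mut clones. It was called higher without KO clone 1 (log2 change 1.23) and lower without KO clone 2 (-2.08).

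Lower in KO clones were Slc38a4, Phlda2 and Impact. Slc38a4 had 0.235 and 0.0795 CPM in KO clones, against 1.30 and 2.13 CPM in Mut clones (log2 change -3.35, SE 0.780, adjusted p = 0.0238), all below the 93.7 CPM of the lowest MSC library. Phlda2 had 1 count over the KO clones, against 1.01 and 1.82 CPM in Mut clones, where it was 35.4 times as high (95% counting interval 5.97 to 1435, adjusted p = 0.0186). Impact had 50.6 and 40.6 CPM in KO clones, against 71.4 and 107 CPM in Mut clones (log2 change -0.95, SE 0.274, adjusted p = 0.0457). Gnas, Impact, Phlda2 and Slc38a4 lost their calls in each of the 4 fits without a clone, and Mkrn3 did without KO clone 1, KO clone 2 or Mut clone 2.

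Grb10 had 47.1 and 0.716 CPM in KO clones, against 532 and 509 CPM in Mut clones. The groups did not overlap, but the KO clones lay far apart and the change was not called (log2 change -4.43, SE 1.71, adjusted p = 0.136). It was called without KO clone 1 (-9.48, adjusted p = 0.000798) and without KO clone 2 (-3.45, adjusted p = 0.00384), fits that leave a single KO clone. Of the other members without overlap, Copg2, Cd81, Tssc4 and Nap1l4 had log2 changes of 0.41, 0.22, 0.40 and 0.38. Sgce, Kcnq1ot1, Trappc9 and Inpp5f had -0.56, -0.49, -0.22 and -0.60. Their adjusted p-values were 0.112 to 0.478, the smallest for Inpp5f. Cdkn1c, Meg3 and Mirg had no count in any of the 4 clones.

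**Figure D5:**
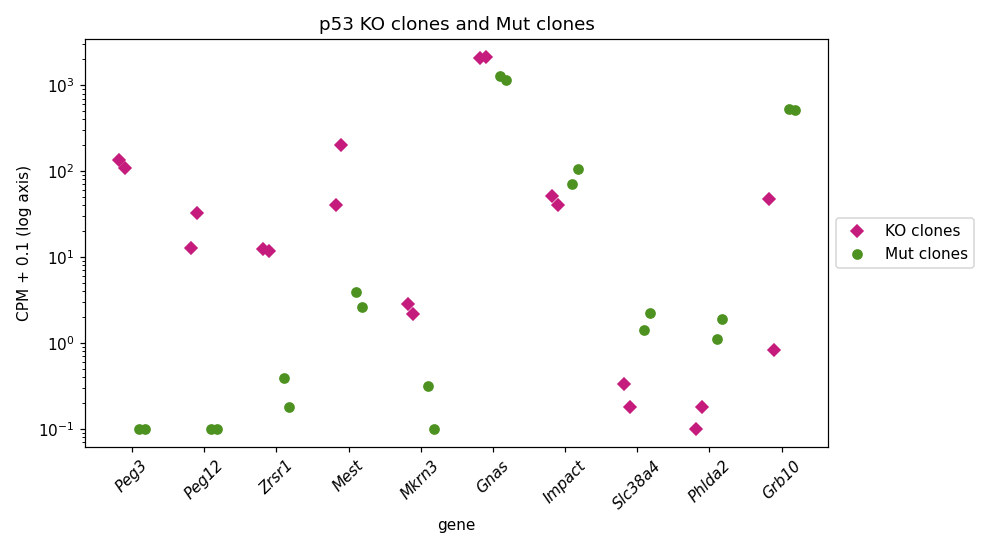
Level of the 9 imprinted genes called between KO clones (diamonds) and Mut clones (circles), and of Grb10, as CPM + 0.1 on a log axis, ordered by log2 change. Peg3 and Peg12 are at 0 CPM in both Mut clones and at 12.5 CPM or more in the KO clones, and the Mest and Grb10 values of the KO clones lie far apart.

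The clones also differed in markers of several cell types. Summed levels of the 6 skeletal muscle markers were 1973 and 3148 CPM in KO clones, against 3.83 and 3.95 CPM in Mut clones, and all 6 were called higher, with Myf5 and Actc1 at 0 in both Mut clones. Stromal marker sums were 2864 and 2866 CPM in KO clones, against 2092 and 1594 CPM in Mut clones, and of 11 tested 3 were called higher, Pdgfrb, Cxcl12 and Col1a1, and 2 lower, Pdgfra and Ly6a. Of 2 epithelial markers tested, Krt19 was called higher and Krt18 lower, with Krt18 at 0.157 CPM on average in KO clones and 71.6 CPM in Mut clones. Of 3 blood markers tested, Csf1r was called higher and Cd14 lower. The part of these genes in the changes of the imprinted genes was not tested. When all 17 libraries shared an estimate of spread, Mest was the only member called, and Peg3, Peg12 and Zrsr1 had adjusted p-values of 0.151, 0.0633 and 0.0514.

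Genes that keep imprints in place were examined as a list. Of 20 maintenance genes, which include the DNA methyltransferases, the zinc finger proteins Zfp57 and Zfp445 with their partner Trim28, and the Tet enzymes, 18 were tested against MSC. Tet1, which oxidises methylcytosine, fell to 0.506 ± 0.301 CPM in tumour lines (SD, n = 10), against 3.57 ± 0.310 CPM in MSC (n = 3; log2 change -2.78, SE 0.574), and no other was called. Between KO clones and Mut clones, 17 were tested and Ezh2, the methyltransferase of Polycomb repressive complex 2, was higher (log2 change 1.10, SE 0.293). None was called by generation or by number.

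Genes that flank the loci were also examined, 72 in all. They were picked by position among genes outside the named set, and whether some are imprinted themselves was not checked. In tumour lines, 3 of 48 tested were lower than in MSC and 0 higher, where 4.79% and 3.86% of all genes were: Begain (log2 change -3.25), which neighbours Dlk1, Fam13a (-3.32) and Sec23ip (-0.69). By number 0 of 47 were called and by generation 0 of 48. Between KO clones and Mut clones, 9 of 43 were higher and 6 lower, where 14.2% and 12% of all genes were, and the largest changes were Cobl (8.04) and Ddc (7.24), both beside Grb10, Zfp521 (7.23) and Dync1i1 (6.62).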

How the data were processed

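RNA of 17 libraries was read in single-end runs of 60 bases, per the labels' protocols. The submitters' processing notes name cutadapt, TopHat2 2.0.10, HTSeq 0.6.1p1, DESeq2 1.6.3 and mm10; their order, the annotation and the strand setting are not given in those notes. The authors deposited raw counts, whole numbers for each gene symbol, and 4 columns of their table that match no sample were not used. Groups come from the titles. The labels do not name separate animals or cultures within a group, so p-values reflect variation among these libraries, possibly technical in part. No pair of libraries in a group agreed within sampling noise.

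CPM were computed from the deposited counts, on library sizes scaled by TMM (the trimmed mean of M values) over all 17 libraries. Differences were tested with edgeR 4.0.16 in R 4.3.3: filter by expression, robust quasi-likelihood fit, Benjamini-Hochberg adjustment over all genes tested, and an adjusted p under 0.05 as the call. There were 4 comparisons: the mean of TL2 and TL1 minus MSC (13 libraries, which treats the 10 lines as independent), TL2 minus TL1 in the same fit, the number in the titles among the 10 tumour lines with generation as a covariate, and KO minus Mut clones fitted alone. Alternatives were other scalings, no low-count filter, DESeq2 1.42.0, voom of limma 3.58.1, leaving out each library, a block for the number, summed lines, all 17 libraries in 1 fit and no generation covariate. Where a group had no count, a lower bound was computed at 3 counts over that group. Where it had 1 to 3, the ratio has an exact 95% interval. Both cover counting error only.

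The number in the titles pairs TL2 with TL1: deviations from the group means had same-number correlations over genes of 0.473, 0.374 and 0.485. For MSC with either, these were between -0.0285 and 0.189, and those of unlike numbers were between -0.196 and 0.0693. Whether the number pairs MSC with the lines was thus not settled, and the comparison with MSC was fitted without the number. Fold changes with tests are printed for every member called, and for every member whose libraries do not overlap and whose higher group averages 10 CPM or more; other members are given by level, with a log2 change added where an alternative turned its direction. The members, the gene lists and this rule were chosen with earlier results of these data known. Positions are 1-based on GRCm38.p6, the assembly behind mm10, from RefSeq's gene table, which matched 43 members by symbol and Nespas by a synonym.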

Additional observations from a re-analysis of the deposited data

Results flagged for a closer look

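Chance alone places 1 group in about 20 beyond the criterion used for single libraries, and 49 sets of a gene and a group were examined, with 5 such libraries found. Meg3 in TL1 3a, at 124 CPM, stood apart from the other TL1 lines, at 0 to 1.20 CPM. Rian in TL1 3a, at 62.5 CPM, stood apart from 0 to 0.601 CPM in the other TL1 lines. Slc38a4 in TL1 2b, at 33.4 CPM, stood above the other TL1 lines, at 0.375 to 1.57 CPM. Cd81 in TL2 1, at 56.9 CPM, was the low library of TL2, where the others had 151 to 180 CPM. Dlk1 in TL2 3, at 7.71 CPM, stood above the other TL2 lines, at 0 to 0.140 CPM.

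Peg3 moved in opposite ways relative to the MSC library of the same number in lines of number 1 and number 2. In log2 CPM with a prior count of 2, the lines of number 1 were higher by 5.40, 1.52 and 2.68, while the differences in the lines of number 2 were -4.00, -2.98, -4.00 and -2.04. In the lines of number 3 they were -2.62 in TL2 3, 7.44 in TL1 3a and 4.93 in TL1 3b. The difference between the numbers was not tested in this form, and 28 members were examined for such opposite changes. Whether the MSC libraries are paired with the lines beyond sharing a number is not known.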

How the results depend on the processing

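Of the changes recomputed under each alternative (members called in any fit, or separated between groups at 10 CPM or more), 2 turned their direction. Cdkn1c against MSC (0.58) was -3.45 with limma-voom, -6.32 with the number as a replicate block, where it was called lower (adjusted p = 0.0316), and -0.28 to 1.33 in fits without a library. Peg10 in KO clones (0.37) was -0.42 with limma-voom and -2.08 to 1.23 in fits without a clone. Members called lower in tumour lines (7) numbered 11 with limma-voom, 12 with the number in the titles as a replicate block, 4 with lines summed per number, and 3 to 10 in the fits that left out a library, the fewest without MSC 1 and the most without TL1 3a. Beside Cdkn1c, the block added Grb10, Meg3, Plagl1 and Rian; for TL2 minus TL1 it changed no call. Members called by number (1) came to 10 with DESeq2, 2 with library totals alone, 2 with no low-count filter, 4 without the generation covariate and 1 to 3 in fits without a library. Members called higher in KO clones (6) came to 1 with all 17 libraries in 1 fit and 3 to 5 without a clone; those called lower (3) came to 0 and to 0 to 2. No paired analysis was possible for the clones because their titles carry no number. Over all genes, calls higher in tumour lines were 374 to 1167 and lower 547 to 1041 over the settings that keep all libraries; fits without a library gave 75 to 682 and 229 to 850. Genes called by number came to 271 to 1981 over the settings, and to 29 to 376 without a library. Calls in KO clones came to 512 to 2058 higher and 308 to 1816 lower, and without a clone to 796 to 1016 and 502 to 753. Depth limits members near zero, where 1 count is under 0.1 CPM. The causes of these shifts were not tested.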
